A study of Mus musculus with 2 samples.

Results

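The panel held probes for 7 miRNAs that are typical of neurons, mmu-miR-124, mmu-miR-128, mmu-miR-129-3p, mmu-miR-132, mmu-miR-137, mmu-miR-138 and mmu-miR-218 (written without the mouse prefix mmu below), and their counts in sorted Müller glia (MG) are described here. Their probes were found by name (the mouse probes without a star), and all 7 were among the 566 mouse miRNA probes. Levels were read by the NanoString nCounter assay, in which each miRNA is ligated to a tag, bound in solution by a barcoded probe and counted without amplification, and raw counts are therefore numbers of barcodes. MG span the retina and support its neurons, and were sorted for tdTomato from the retinas of adult mice. The wild-type library came from 40 pooled retinas of Rlbp1-CreER:tdTomato mice, and the Dicer-CKO library from 26 pooled retinas of Rlbp1-CreER:tdTomato:Dicerf/f mice. Both groups therefore carried the tamoxifen-inducible Cre and the reporter, and both received tamoxifen at 75 mg/kg from postnatal day 11 to 14. They differ in the floxed Dicer alleles. The Cre is driven by the Rlbp1 promoter, which is active in MG, so the deletion is aimed at MG and not at neurons. The study states that some cells of the pigment epithelium have active Cre as well. The tdTomato-negative cells, which the study calls its neuronal fraction, were not analysed here. There was 1 library per group, so differences below were not checked against replicates, and p-values were not computed.

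Dicer cuts most miRNA precursors to their mature length, and a mature miRNA then guides the silencing complex to mRNAs that pair with its seed, bases 2 to 8. In neurons, miR-124 is the best known of these miRNAs and represses transcripts of other cell types, among them the splicing regulator Ptbp1. miR-132 is made in response to neuronal activity through CREB, miR-137 acts in neuronal maturation, and miR-128 sets neuronal excitability in mice. miR-138 limits the size of dendritic spines in rat neurons, miR-218 is a miRNA of motor neurons in mice, and miR-129-3p is known from human cells and zebrafish to repress the centriole protein CP110.

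The mature sequences of 6 of the 7 members were matched by name in RefSeq (assembly GRCm38.p6), with the unstarred probe taken as the main arm of its hairpin, and miR-124 was not matched. They are shown to tell which miRNAs share a seed and could be read as a family, with the seed in capitals and miR-212 added as the neighbour of miR-132.
miR-129-3p: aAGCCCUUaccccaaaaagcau
miR-132: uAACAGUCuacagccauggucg
miR-212: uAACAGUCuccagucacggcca
miR-137: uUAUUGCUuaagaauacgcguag
miR-128: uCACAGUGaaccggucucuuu
miR-138: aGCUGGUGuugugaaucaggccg
miR-218: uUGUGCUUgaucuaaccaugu
The 6 members have 6 different seeds, so none of them is a family partner of another. miR-132 and miR-212 share the seed AACAGUC and are identical at 17 of 22 positions. Their hairpins, Mir212 (chr11:75173388-75173478) and Mir132 (chr11:75173682-75173747), lie 203 bases apart on the plus strand. miR-129-3p is encoded by Mir129-2 on the minus strand (chr2:94241364-94241453), inside the span of the long non-coding RNA gene Mir670hg. miR-137 comes from Mir137 on chromosome 3 (chr3:118433857-118433929), for which no spanning gene was annotated. miR-128, miR-138 and miR-218 are each encoded at a pair of loci that give the same mature sequence, and a probe cannot tell such loci apart. Mir128-1 lies in R3hdm1 and Mir128-2 in Arpp21, Mir138-2 lies in Nup93, and Mir218-1 and Mir218-2 lie in Slit2 and Slit3.

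The libraries differed strongly in their barcode totals. The wild-type library held 769736 barcodes and the Dicer-CKO library 139812, of which 695390 and 52644 fell on mouse miRNAs. Barcodes of the positive controls, which are added to the assay, did not share this drop (46877 in wild-type and 60241 in Dicer-CKO). The 8 negative controls ranged from 11 to 62 in wild-type and from 7 to 59 in Dicer-CKO. A probe was taken as detected above their mean plus 2 SD, that is, above 71.7 barcodes in wild-type and 53.2 in Dicer-CKO, which 30.2% and 13.6% of the mouse probes passed. For normalized counts, the average negative control was subtracted from each probe and the rest was scaled to the 6 positive controls and then to 4 housekeeping mRNAs, as the study's methods name these controls. On this housekeeping scale the detection limit became 23.6 normalized counts in wild-type and 90.0 in Dicer-CKO. Low levels were therefore harder to see in Dicer-CKO on this scale, although the raw limit was lower there. Intervals are 95% counting intervals. They do not cover biological spread or the error of the scale.

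miR-124, miR-129-3p and miR-132 were detected in both libraries. The raw count of miR-124 was 1211 in wild-type and 2759 in Dicer-CKO. It was the only member with the higher raw count in Dicer-CKO, although that library held far fewer miRNA barcodes. miR-129-3p had raw counts of 313 and 252, and miR-132 of 141 and 81, both lower in Dicer-CKO before any scaling. Among the 566 mouse probes, miR-124 ranked 34 by raw count in wild-type and 4 in Dicer-CKO. miR-129-3p moved from rank 66 to 29, and miR-132 from 99 to 56.

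**Figure D1:**
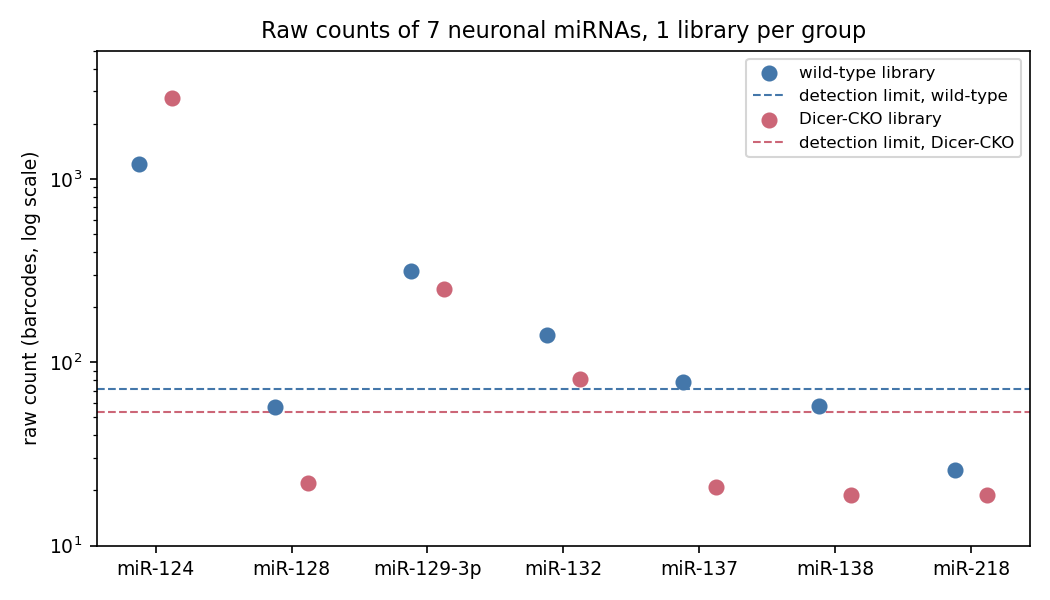
Raw counts (log axis) of the 7 neuronal miRNAs in the wild-type and Dicer-CKO libraries, 1 library per group, with the detection limit of each library as a dashed line. miR-124 goes from 1211 to 2759 barcodes, while miR-128, miR-138 and miR-218 lie below the limit of their library in both.

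The other members were at or near background. The raw count of miR-137 was 78 in wild-type, just above the limit of 71.7, and 21 in Dicer-CKO. Probes for viral miRNAs, which should find no target in these mice, give a measure of background, and 2 of the 33 viral probes also had 78 or more barcodes in wild-type. The wild-type signal of miR-137 was thus no higher than that of the highest background probes. miR-128 had raw counts of 57 and 22, miR-138 of 58 and 19, and miR-218 of 26 and 19. All of these were inside the range of the negative controls of the same library. In wild-type, 8 of the 33 viral probes reached the count of miR-128, 7 that of miR-138 and 22 that of miR-218. These 3 members were not detectable in these libraries. On the housekeeping scale the limits were 23.6 normalized counts in wild-type and 90.0 in Dicer-CKO. Only 3 of the 7 miRNAs thus gave a level in both pools, and a pattern of all 7 cannot be described.

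On the housekeeping scale all 3 measured members were higher in Dicer-CKO. The normalized count of miR-124 went from 839 (791 to 889) in wild-type to 7503 (7224 to 7791) in Dicer-CKO, 8.94-fold higher (95% counting interval 8.34 to 9.59). miR-129-3p went from 196 (172 to 223) to 635 (552 to 725), 3.23-fold (2.68 to 3.90). miR-132 went from 73.3 (57.3 to 91.4) to 166 (120 to 220), 2.27-fold (1.53 to 3.29). The call of miR-132 depended on the background step, since its fold was 1.80 (0.684 to 3.49) when the limit of mean plus 2 SD was subtracted instead and 1.33 (0.314 to 2.73) with the highest negative control. The counting limits of the libraries did not overlap for any of the 3. How often these limits failed to overlap over all mouse probes was not counted, so this does not set the members apart. With a call made at 2-fold or more and a counting interval clear of equality, 3 of the 7 members were called higher and 0 lower, where 3.71% of all 566 mouse probes were called higher and 9.19% lower. Of the 174 mouse probes detected in either library, 12.1% were called higher and 29.9% lower. For miR-137, which was at background in Dicer-CKO, the Dicer-CKO limit was 3.19 times the wild-type level, or up to 5.46 times with its counting error, and its direction could not be read. The median log2 ratio was 1.69 over the 3 measured members and -1.12 over the 74 mouse miRNAs measured in both libraries. The median over the members leaves out miR-137. It includes miR-132, whose wild-type level lay under the Dicer-CKO limit of 90.0, so that it could enter only if higher there. Among the 74 mouse miRNAs, ordered from the highest fold down, miR-124 was in place 2, miR-129-3p in place 12 and miR-132 in place 17. In a comparison chosen after the data had been seen, miR-124 was set beside miRNAs of its own abundance, and its fold lay above all of those measured. Besides miR-124, 23 mouse miRNAs had a wild-type level within 2-fold of its own, between 419.6 and 1678 normalized counts. Of these, 17 were called lower and 0 higher, and the highest fold among the 20 measured in both libraries was 1.19.

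Detection limited which changes could be seen, and the values given here are on the housekeeping scale. The wild-type level of miR-132 lay below the Dicer-CKO limit, and so it could be measured there only if it was at least 1.23-fold higher. All 10 mouse miRNAs that were measured from such a low wild-type level, miR-132 among them, were above wild-type, as the limit requires. A fall of miR-129-3p to less than 0.458 times its wild-type level would have gone unmeasured, whereas miR-124 would have been seen down to 0.107 times. The count of 3 members that rose is therefore no independent sign of a shared direction. In pooled RNA it also cannot be told apart whether more cells with a miRNA, or more of it per cell, made up a higher level.

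The size and, for some members, the direction depended on the scale. Raw counts of the 4 housekeeping mRNAs were 2.80-fold (B2m) to 4.53-fold (Gapdh) lower in Dicer-CKO, while the positive controls, which are added to the assay, were 1.42-fold higher. The housekeeping step thus raises every Dicer-CKO miRNA 5.43-fold over the scale of the positive controls alone. miR-124 was 1.65-fold higher with positive controls only (1.54 to 1.77) and 1.71-fold higher with the ligation controls (1.59 to 1.83). It thus stayed above wild-type on all 5 scales plotted, although below 2-fold on these. miR-129-3p reversed on both, to 0.595 (0.494 to 0.718) and 0.617 (0.512 to 0.744) of wild-type, as did miR-132, to 0.418 (0.283 to 0.607) and 0.433 (0.293 to 0.629). For miR-137 the Dicer-CKO limit was 0.589 times its wild-type level with positive controls, or up to 1.01 times with counting error. With ligation controls it was 0.610 times, or up to 1.04 times, so miR-137 was not called on either. On the same positive-control scale the median log2 ratio of the 74 measured mouse miRNAs was -3.56. A change of scale moves every miRNA by the same factor, so the place of the 3 members above the median could not change. Scaled to the sum of the detected mouse miRNAs, the folds were 37.3 for miR-124, 13.5 for miR-129-3p and 9.47 for miR-132, at a median log2 ratio of 0.95. Which scale is right was not tested.

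**Figure D2:**
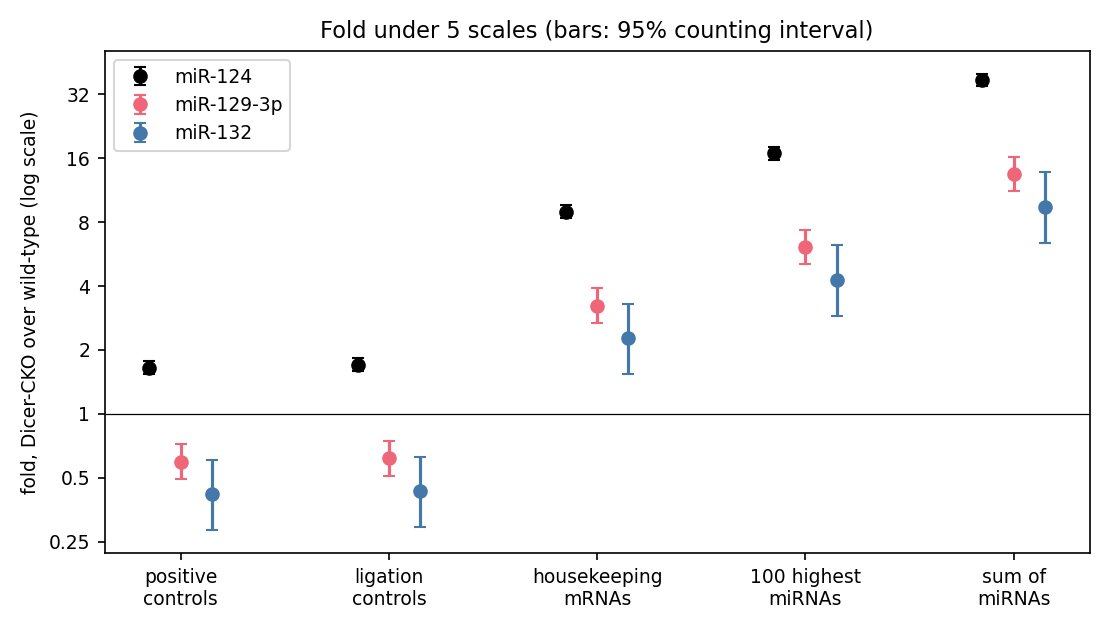
Fold of miR-124, miR-129-3p and miR-132 in Dicer-CKO over wild-type (log axis) under 5 scales, with 95% counting intervals as bars and equality as a line. miR-124 stays above 1 on each, from 1.65 with positive controls to 37.3 with the sum of detected mouse miRNAs, whereas miR-129-3p and miR-132 fall below 1 with positive or ligation controls.

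The fold of miR-124 was larger than those of the other measured members, and the ratio of folds does not depend on the scale between libraries because scale factors cancel in it. The fold of miR-124 was 2.77 times that of miR-129-3p (2.27 to 3.38) and 3.94 times that of miR-132 (2.70 to 5.86). The folds of miR-129-3p and miR-132 did not differ beyond counting error, with a ratio of 1.43 (0.939 to 2.20). Seen within each library, miR-124 had 4.27 times the background-subtracted count of miR-129-3p in wild-type and 11.8 times in Dicer-CKO. Against miR-132 it had 11.5 times and 45.2 times. In the pools, miR-124 therefore did not keep a fixed proportion to miR-129-3p or miR-132.

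A member's share of the miRNA signal of its own library needs no scaling either. miR-124 made up 0.174% (0.164 to 0.184%) of the background-subtracted counts of all detected mouse miRNAs in wild-type and 6.48% (6.24 to 6.73%) in Dicer-CKO. miR-129-3p went from 0.0406% (0.0356 to 0.0460%) to 0.548% (0.477 to 0.626%), and miR-132 from 0.0152% (0.0118 to 0.0189%) to 0.143% (0.104 to 0.190%). The 4 members detected in wild-type together held 0.235% of the signal there, and the 3 detected in Dicer-CKO 7.17%. A share also rises when other miRNAs fall. The 7 miRNAs listed for MG, among them miR-204, miR-125b-5p and miR-9, went from 74.3% to 48.5%.

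**Figure D3:**
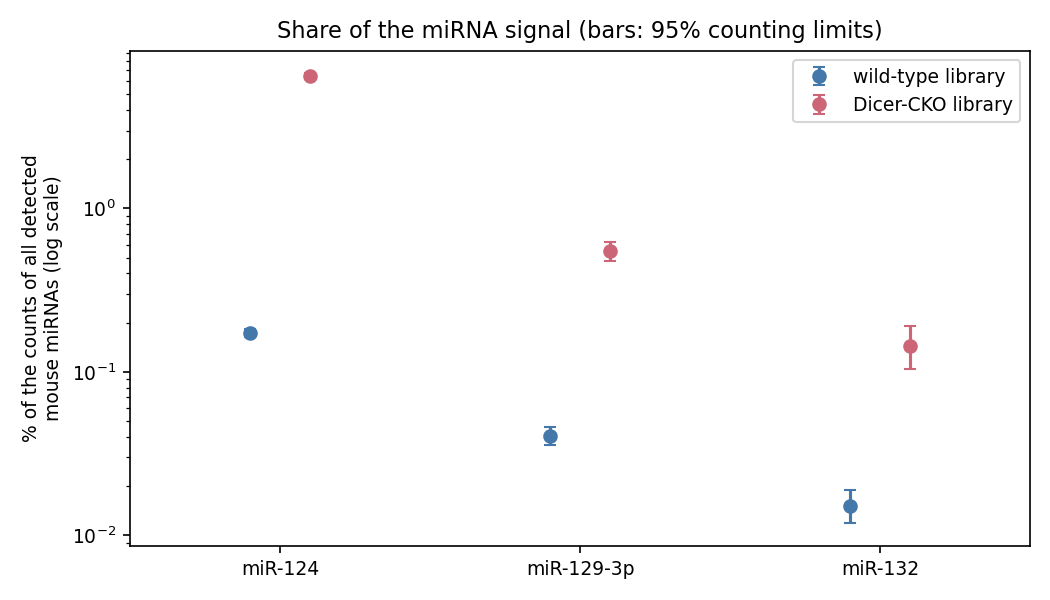
Share of the background-subtracted counts of all detected mouse miRNAs (percent, log axis) taken by miR-124, miR-129-3p and miR-132 in each library, with 95% counting limits as bars. miR-124 goes from 0.174% in wild-type to 6.48% in Dicer-CKO, and the other members also take a larger share in Dicer-CKO.

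The neighbours of the members on the same transcripts were not detected. Of the other arms and cluster partners of the members' hairpins, 2 were on the panel. miR-129-5p, the other arm of the hairpins of miR-129, had raw counts of 69 in wild-type and 30 in Dicer-CKO. miR-212, the cluster partner of miR-132 with the same seed, had raw counts of 49 and 8, against 141 and 81 for miR-132. Both probes stayed below the limit in both libraries, so a change of theirs could not be measured.

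No other brain-enriched miRNA was measured in both libraries. Of 18 such miRNAs, 17 were on the panel, 2 were detected in wild-type and 0 in Dicer-CKO. The 2 were miR-433 (raw counts of 105 and 33) and miR-329 (79 and 7). miR-329 lay close to the wild-type limit of 71.7, while miR-433 was above the highest viral probe in wild-type (91). On the housekeeping scale no direction could be read for either, because the Dicer-CKO limit lay above their wild-type level. Their bounds on the other scales are not given here. Raw counts of the other 15 ran up to 69 in wild-type, that of miR-485. They included miR-7a (57 and 26), a miRNA of neurons and endocrine cells, and miR-153 (9 and 2). Signal from neuron-typical miRNAs above the limit of the Dicer-CKO library was thus found for miR-124, miR-129-3p and miR-132. It was not found for the other 4 members or these 17 probes.

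Next, 7 miRNAs known from MG were read in the pools. They were chosen with earlier results of these data known, so their detection is no independent check of cell identity. All 7 were detected in both libraries and all 7 were called lower in Dicer-CKO on the housekeeping scale, with a median log2 ratio of -2.56. All 7 were also called lower with positive or ligation controls. Scaled to the sum of detected mouse miRNAs, only miR-204 and miR-99a were called lower, and let-7c was above wild-type (1.59-fold, 1.52 to 1.66), as was miR-9 by less than counting error (1.00, 0.971 to 1.03). miR-204, a miRNA of glia and pigment epithelium, had a fold of 0.107 (0.104 to 0.109) on the housekeeping scale, and miR-9, of neural progenitors and glia, had one of 0.240 (0.232 to 0.248). The fold of miR-124 was 83.9 times that of miR-204 (78.0 to 90.4) and 37.3 times that of miR-9 (34.5 to 40.2). In wild-type the background-subtracted count of miR-124 was 0.0180 times that of miR-9, and in Dicer-CKO it was 0.669 times.

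On the housekeeping scale, miRNAs of further cell types were higher in Dicer-CKO as well. Of 3 photoreceptor miRNAs, 2 were measured and called higher, miR-96 (raw counts of 285 and 797, 12.1-fold) and miR-183 (353 and 430, 4.99-fold). miR-182 (40 and 44) stayed below the limit in both libraries, although in Dicer-CKO its count was above the highest viral probe (32). Summed over the detected probes, the normalized count of this list went from 401 to 3250. Of 6 immune cell miRNAs, 4 were measured and called higher, from 2.78-fold for miR-146a to 7.75-fold for miR-142-3p, with a sum that went from 297 to 1325. The defining myeloid miR-223 was at background, with raw counts of 25 and 28. Of 2 endothelial miRNAs, miR-126-3p was called higher (208 and 307, 6.48-fold), and its normalized count went from 121 to 785. All 3 erythroid miRNAs, miR-451, miR-144 and miR-486, lay at background, with raw counts of at most 40 in wild-type and 14 in Dicer-CKO. With positive controls only, miR-96 was the only one of these 7 measured markers still called higher (2.22-fold, with a lower counting limit of 1.91). miR-146a (0.511) and miR-142-5p (0.729) then lay below wild-type, as did miR-183 by less than counting error (0.919), and miR-126-3p (1.19), miR-150 (1.05) and miR-142-3p (1.43) had intervals that included equality. With ligation controls, the same 3 lay below wild-type and miR-96 alone was called higher. Compared directly, the fold of miR-124 was lower than that of miR-96, with a ratio of 0.741 (0.624 to 0.876). It was higher than that of miR-183 (1.79, 1.51 to 2.12) and of miR-126-3p (1.38, 1.10 to 1.72), and did not differ from that of miR-142-3p beyond counting error (1.15, 0.590 to 1.96). The part that other cells in the sorted pools had in these levels was not tested.

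**Figure D4:**
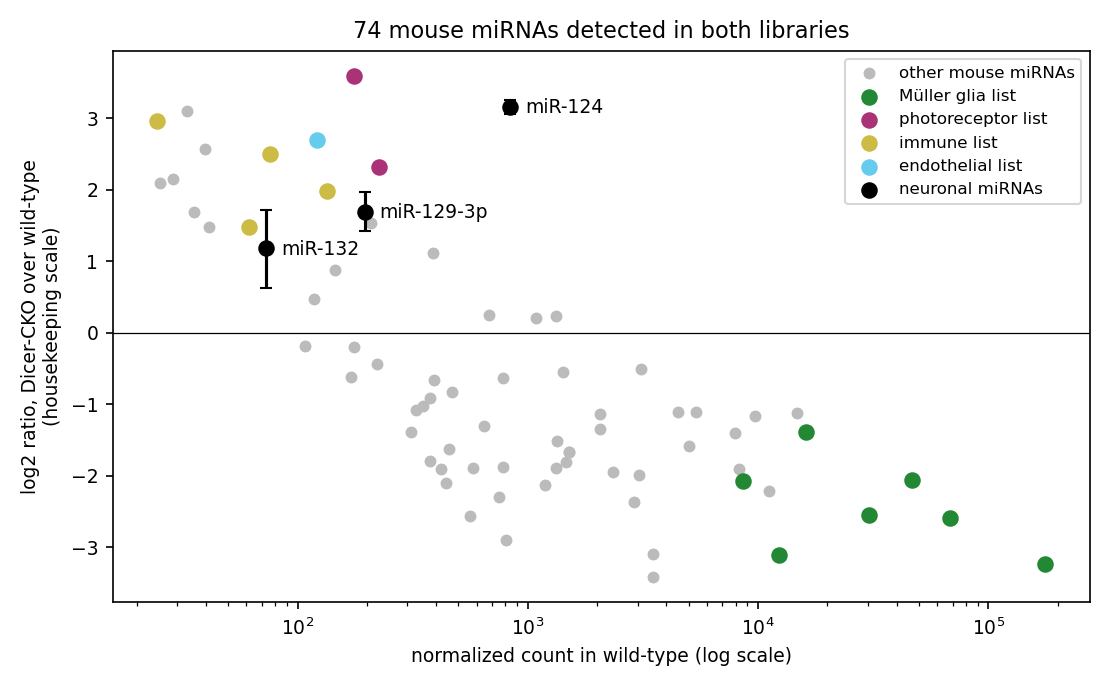
log2 ratio of Dicer-CKO over wild-type on the housekeeping scale against the normalized wild-type count (log axis) for the 74 mouse miRNAs detected in both libraries, with 95% counting intervals for the 3 neuronal miRNAs. miR-124 (3.16), miR-129-3p (1.69) and miR-132 (1.18) lie above 0 with the photoreceptor, immune and endothelial miRNAs, and all 7 MG miRNAs lie below 0. With positive or ligation controls, miR-129-3p and miR-132 fall below 0, as do miR-146a, miR-142-5p and miR-183, and the sum of detected miRNAs turns let-7c and miR-9 above it.

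The miRNAs whose ratio was most like that of each member were then listed, by the distance of their log2 ratios over the 2 libraries. Nearest to miR-124 (log2 ratio 3.16) were miR-466g (3.10), miR-142-3p (2.95) and miR-96 (3.59). The first 2 rested on low raw counts, with 85 and 73 in wild-type. Nearest to miR-129-3p (1.69) were miR-202-5p (1.69), miR-211 (1.53) and miR-101b (1.47). Nearest to miR-132 (1.18) were miR-26b (1.11), miR-146a and miR-101b (both 1.47). No miRNA of the brain-enriched list was measured in both libraries, so none could be among these neighbours. With 2 libraries a shared ratio is a single point of likeness.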

How the data were processed

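The authors deposited raw barcode counts of the probes, 1 file per library. They also deposited normalized counts, a whole-number score made with nSolver from 4 housekeeping mRNAs, 8 negative and 6 positive controls. Groups were taken from the genotype label. A protocol label gives 26 retinas for both samples, while the description of the wild-type sample gives 40, which was used.

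Raw counts were analysed with Python 3.11.15, numpy 2.4.6 and scipy 1.17.1. Probes were matched between libraries by accession. The average negative control was subtracted, and counts were scaled by geometric means of the positive controls and then of the housekeeping mRNAs. Levels carry exact 95% Poisson limits of the raw count, and ratios combine these limits on the log scale (the MOVER method). These intervals cover counting error only. Where 1 library was under its limit, the other was set against that limit. The steps were tested on simulated counts with Poisson error only, which cannot test the scale or biological spread. Named miRNAs are the 7 members, the other arms and cluster partners of their hairpins, detected members of the marker and brain lists with examples, and the 3 nearest ratios. miR-7a, miR-153, miR-485, miR-223, miR-182 and the erythroid miRNAs were named after their values were seen. Members and lists were chosen with earlier results of these data known.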

Additional observations from a re-analysis of the deposited data

How the results depend on the processing

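The 20 alternatives changed the background step, the scale, the detection limit, the interval or the size rule. miR-124 was above wild-type under all 20, from 1.65-fold to 37.3-fold. The detection limit, the interval and the size rule cannot alter its fold, so only the changes of background step and scale bear on this. miR-129-3p and miR-132 reversed to 0.595 and 0.418 with positive controls only and to 0.617 and 0.433 with ligation controls. With either of these scales, 0 members were called higher and 1 (miR-132) lower, while 2 mouse miRNAs were called higher and 137 (positive) or 136 (ligation) lower. With a 4-fold rule, 1 member was called higher, and 13 mouse miRNAs were higher and 19 lower. Scaled to the sum of detected miRNAs, 37 were higher and 5 lower, and scaled to the 100 highest, 22 were lower. Counts of higher miRNAs were 13 with the highest negative control subtracted and 12 with detection above 100 barcodes, where miR-132 was not measured in Dicer-CKO. Of the 3 measured members, miR-132 was closest to background. Its fold was 1.33 (0.314 to 2.73) with the highest negative control subtracted and 1.80 (0.684 to 3.49) with the mean plus 2 SD subtracted, and it was not called with either. With the highest control, the ratio of folds became 8.44 for miR-124 over miR-132 and 2.76 for miR-129-3p over miR-132. With the mean plus 2 SD subtracted, miR-124 over miR-132 was 5.93. Shares of miR-132 in wild-type were 0.0207% with no subtraction, 0.0191% with the lowest control, 0.0103% with the mean plus 2 SD and 0.0118% with the highest control, and in Dicer-CKO 0.0699% and 0.0560% with the last 2. The share of miR-124 in Dicer-CKO was 6.81% and 6.87% with these. Values computed here were 1.14 times the deposited normalized counts in both libraries, and no call of a member changed with the deposited values. No paired analysis was possible because there was 1 library per group.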
